A study of Homo sapiens with 4 samples.

Results

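The comparison described here is that of CL1-5 cells carrying an shRNA against G9a with CL1-5 cells carrying a control shRNA. It rests on 2 of the 4 arrays of the series, 1 for each population, so it has no replicates, and no test, p-value or SD between populations is given. CL1-5 is an invasive subline of the human lung adenocarcinoma line CL1-0. The 4 groups, each 1 array, were CL1-5 with control shRNA, CL1-5 with the hairpin titled G9a shRNA2, CL1-0 with a control vector, and CL1-0 with HA-G9a, an HA-tagged copy of G9a. All of them, the controls included, were stably transduced and selected with puromycin for 2 weeks, per the labels. The knockdown is thus 1 hairpin in 1 selected population, and neither a further hairpin nor an untransduced population was analysed here. Of 19740 genes measured by a probe set naming a single gene, 8458 were bright, meaning that the brighter of the 2 CL1-5 arrays reached 84.2, the 75th percentile of all deposited signals.

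G9a, encoded by EHMT2, adds methyl groups to lysine 9 of histone H3, mostly as a dimer with the related enzyme GLP. The dimethyl mark it leaves is found over silent genes of euchromatin, and both the enzyme and the mark are best known for gene repression. In lung cancer lines G9a has been studied for its bearing on invasion and metastasis, and its loss in other cells is known to touch interferon responses, endogenous repeats and genes of other lineages.

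EHMT2 itself read 376 in the control and 28.1 after the knockdown, and 419.7 and 862 in the CL1-0 arrays with vector and with HA-G9a. The signal followed the labels in both lines. Ratios below are log2 ratios of the knockdown over the control relative to 0.40, the median ratio of the 15646 bright probe sets, because the knockdown array was brighter for most genes. On this relative scale EHMT2 stood at -4.14. A difference is counted when it passes 2-fold, a relative log2 ratio of 1 or more either way.

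Several facts of the arrays bear on all values. Median signals over all probe sets ran from 11.3 to 14.9 on the 4 arrays, the highest being that of the knockdown. For 18 probe sets of bacterial RNA added at hybridization, the median ratio was 0.11 (SD 0.11 among them) against 0.40 for bright probe sets. Where a gene had several bright probe sets, which was so for 3592 genes, the pooled SD of their ratios was 0.30, a measure of technical spread only. Of 323 genes past 2-fold with several bright probe sets, 317 had all of them on one side of 0. Signals were set to a floor of 3.35 before the ratio was taken, and where the dimmer array lies at that floor the ratio is a lower bound that depends on it. This concerned 4 of the higher genes and 9 of the lower ones.

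The labels give a type II alveolar cell as the cellular origin, and most of its markers were dim on these arrays. SFTPC, a surfactant protein gene, read 33.5 in the control and 29.8 after the knockdown, SFTPB 31.5 and 40.2, and the lung lineage factor gene NKX2-1 29.6 and 3.87. Of 12 type II markers on the array, 3 were bright, namely HOPX, ETV5 and LPCAT1, and HOPX was lower after the knockdown at 97.9 and 12.2. Of 7 epithelial markers 2 were bright, KRT18 at 2945 and 2533 and KRT8 at 757 and 325. Of 7 type I alveolar markers 2 were bright, and neither passed 2-fold. None of the fibroblast, leukocyte, airway, basal or neuroendocrine markers was bright on either CL1-5 array. In RNA from a whole culture, fewer cells of a kind and less RNA per cell cannot be told apart.

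Of the 8458 bright genes, 428 (5.06%) were higher after the knockdown by 2-fold or more and 431 (5.1%) lower, 859 (10.2%) in all. The counts near the threshold were alike and the extremes were not: 84 genes (0.993%) passed 4-fold upward and 144 (1.7%) downward, and 8-fold was passed by 39 and 71. Between the 25th and 75th percentile, ratios ran from -0.28 to 0.32. The 1st percentile was -2.82 and the 99th was 1.98. The split into higher and lower depends on the centring. With the signals as deposited, 1034 genes were higher and 252 lower, so 80.4% of those past 2-fold were higher against 49.8% on the relative scale. Centred on the hybridization controls, 787 were higher and 289 lower, or 73.1%. These choices moved the median of all bright genes from 0.01 to 0.41 and 0.30. On the deposited scale every ratio given below is higher by 0.40, so that list medians between -0.40 and 0, such as those of MHC class I (-0.38) and integrin genes (-0.33), turn positive. Just inside the threshold lay SLC27A1, at 36.3 in the control and 95.8 after the knockdown, and TXNDC12, at 1186 and 782. Just outside lay UFSP2, at 374 and 986, and CKAP4, at 951 and 628.

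Most genes that were far higher lay below the filter in the control, which their choice by ratio favours. Of the 84 genes at least 4-fold higher, 13 were bright in the control and 38 in CL1-0 with vector, and their median signals were 22.7 in the control, 291 after the knockdown and 70.3 in CL1-0 with vector. Of the 144 genes at least 4-fold lower, 25 were still bright after the knockdown. Their median signal was 199 in the control and 31.7 after the knockdown, beside 28.8 in CL1-0 with vector. The medians after the knockdown are set by the choice of the genes, and those in CL1-0 are given as values beside them.

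**Figure D1:**
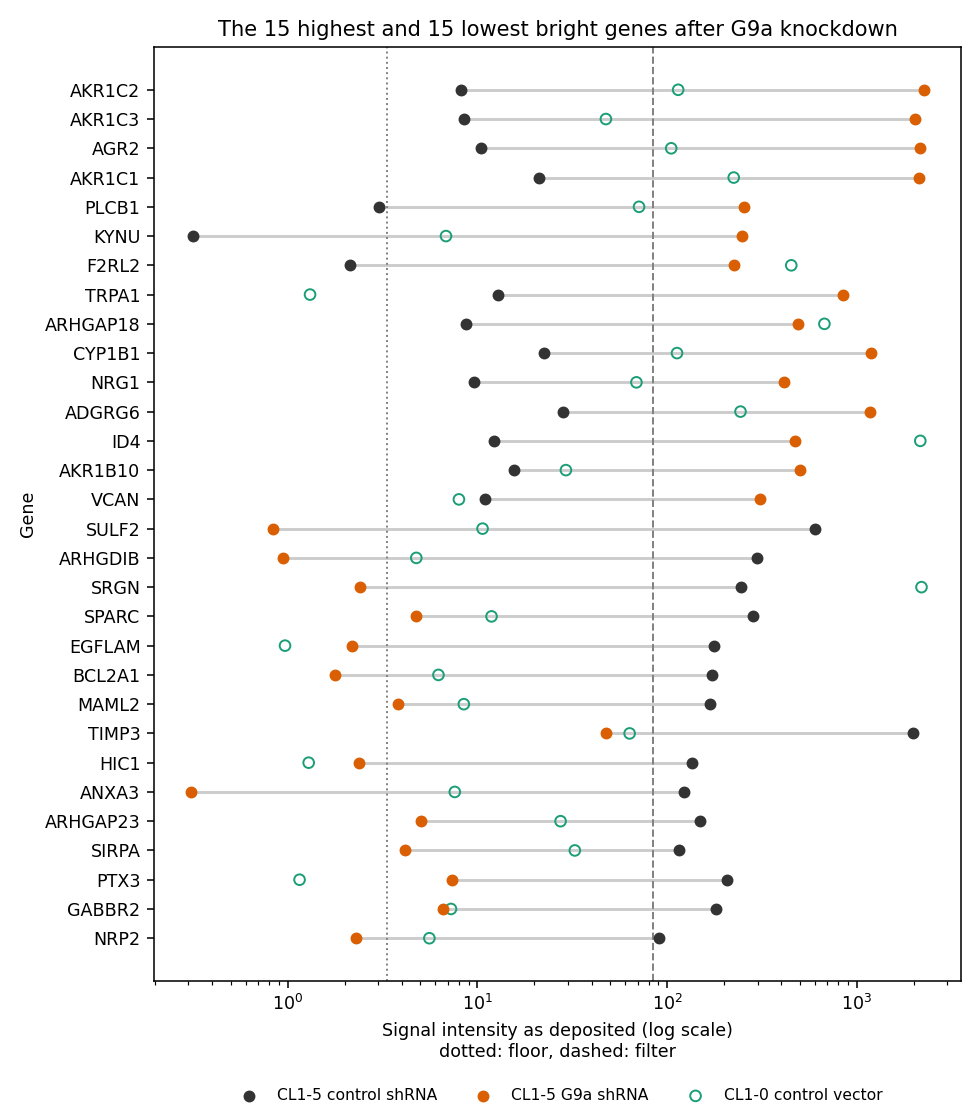
Signals as deposited (log axis) of the 15 bright genes of highest and the 15 of lowest relative ratio, in the CL1-5 control (black), the knockdown (orange) and CL1-0 with vector (open green). The dotted line is the floor of 3.35 and the dashed line the filter at 84.2. Each gene lies below the filter on one CL1-5 array and above it on the other, such as AKR1C2 at 8.20 and 2271.

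Interferon-stimulated effector genes were lower as a group after the knockdown. They encode the proteins that cells make when interferon reaches its receptor, and they block viral RNA, translation and budding. Of 62 such genes on the array, 35 were bright, of which 16 were lower by 2-fold or more and none was higher. Their median relative ratio was -0.94 against 0.01 over all bright genes, and -0.54 as deposited. As deposited, 13 of them were lower and 0 higher. The members were not alike, ranging from -4.85 to 0.45. The 16 included 4 members of the IFIT family, which bind foreign RNA ends.

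Many promoters of these genes carry the interferon-stimulated response element. Promoter windows from RefSeq (GRCh38.p14) of 4 lower members are shown because the element core, GAAA, any 2 bases and GAAA again on either strand, lies in them. Each runs over 120 bases on the gene's own strand, from 170 to 51 bases before the annotated start, and the capitals mark every match, overlapping ones included.
IFIT1 (chr10:89392453-89392572, plus strand): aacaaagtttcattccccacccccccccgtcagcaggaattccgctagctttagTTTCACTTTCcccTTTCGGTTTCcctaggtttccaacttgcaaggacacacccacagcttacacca
IFIT3 (chr10:89327827-89327946, plus strand): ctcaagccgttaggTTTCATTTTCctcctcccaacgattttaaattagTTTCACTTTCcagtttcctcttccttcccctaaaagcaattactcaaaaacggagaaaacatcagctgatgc
ISG15 (chr1:1013327-1013446, plus strand): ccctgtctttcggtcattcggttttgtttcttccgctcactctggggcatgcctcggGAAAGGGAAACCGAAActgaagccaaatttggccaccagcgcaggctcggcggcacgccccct
IFI6 (chr1:27672243-27672362, minus strand): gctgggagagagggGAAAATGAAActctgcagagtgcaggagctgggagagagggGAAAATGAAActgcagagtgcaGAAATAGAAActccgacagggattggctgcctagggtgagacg

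The window of IFI6 holds 3 matches and those of IFIT1, IFIT3 and ISG15 hold 2 each. Over whole windows of 300 bases, 250 before to 50 after the start, a match was present in 996 of 27305 promoters of the table (3.65%) and in 187 of 7134 bright genes that could be matched to it (2.62%). Among bright interferon effectors it was present in 18 of 30, and among the lower ones in 9 of 13. Of all genes at least 2-fold lower, 18 of 340 held it (5.29%), and 11 of 105 of those at least 4-fold lower (10.5%). The 18 included the 9 lower interferon effectors just given, so their share does not describe lower genes outside that list. Of the genes at least 2-fold higher, 4 of 329 did (1.22%). A match is a run of letters and does not show that a factor bound there.

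The 4 genes with printed promoters were bright in the control. IFIT1, a sensor of viral RNA caps, read 572 in the control and 73.9 after the knockdown (-3.35), and 38.5 and 49.0 in the CL1-0 arrays. ISG15, a ubiquitin-like modifier, read 1419 and 234, and 360.5 and 434 in CL1-0. IFI6, which encodes a small protein of endoplasmic reticulum and mitochondria, read 204 and 41.1 (-2.71), and 63.1 and 53.1 in CL1-0. IFIT3, of the same family as IFIT1, read 529 and 26.5, and 8.84 and 21.7 in CL1-0. For all 4 genes the CL1-5 control was the highest array, and the knockdown lay closer to both CL1-0 arrays than to the control.

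Further effectors and the enzymes of the ISG15 pathway ranged widely. UBE2L6, the conjugating enzyme for ISG15, read 409 in the control and 156 after the knockdown (-1.79). GBP3, a guanylate-binding protein, read 96.2 and 12.7 (-3.32), and OASL, a relative of the oligoadenylate synthetases, 105 and 17.5 (-2.98). These 3 genes also lay past 2-fold. The mitochondrial nucleotide kinase gene CMPK2 read 84.8 and 15.1, ISG20, an exonuclease of viral RNA, 135 and 49.7, and APOL6 109.8 and 43.9. At the other end, HERC5, the ligase for ISG15, read 203 and 286 (0.10) and LAP3, an aminopeptidase, 975 and 1757 (0.45). Neither of these passed 2-fold, and the other bright members between them, such as OAS3 (-0.94), PLSCR1 (-0.76), IFITM3 (-0.73) and TRIM25 (-0.07), did not either.

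**Figure D2:**
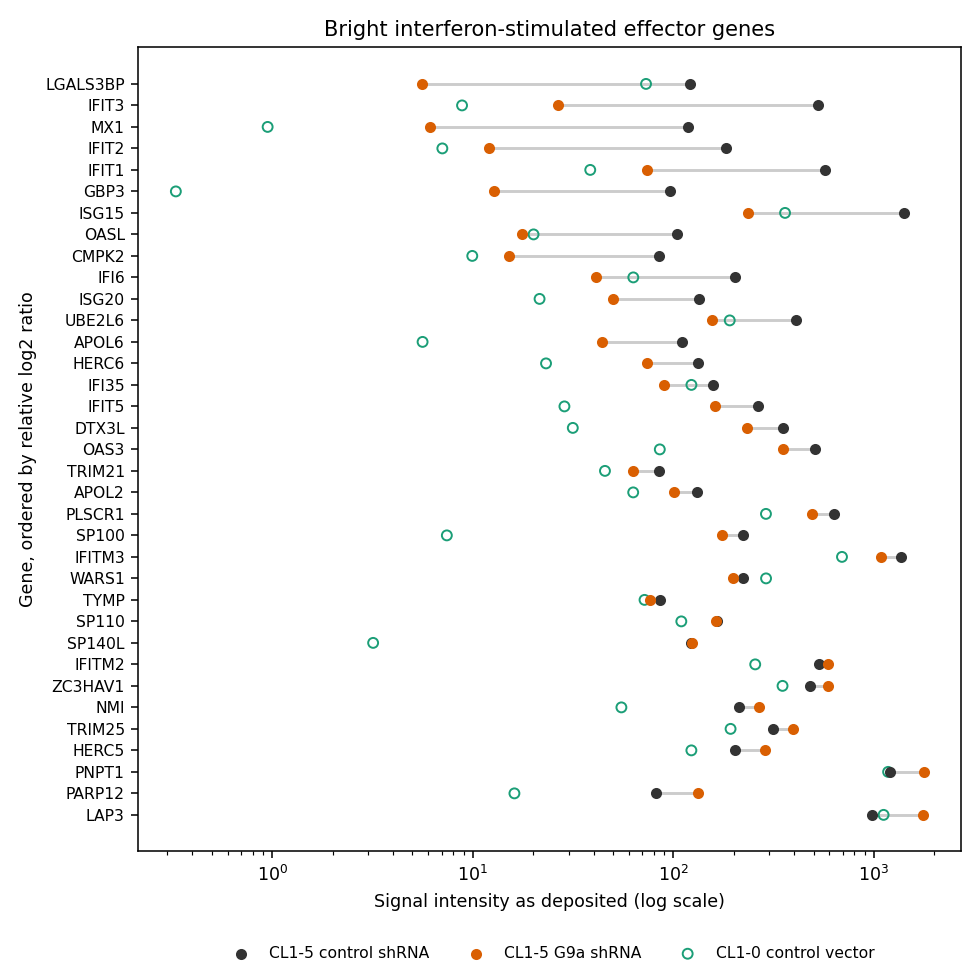
Signals as deposited (log axis) of the 35 bright interferon-stimulated effector genes, ordered by relative ratio, in the CL1-5 control (black), the knockdown (orange) and CL1-0 with vector (open green). The upper genes, such as ISG15 at 1419 and 234, are far apart between both CL1-5 arrays, and the lower ones overlap.

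The machinery that senses RNA and relays interferon was lower in fewer members. STING1, the adaptor of the cytosolic DNA sensor, read 205 in the control and 19.4 after the knockdown (-3.80), with both bright probe sets on the lower side. RIGI, a sensor of viral RNA, read 213 and 119 (-1.23). These were the members past 2-fold among 7 bright sensors and adaptors, whose median was -0.58. IFIH1, the partner sensor MDA5, stood at -0.90, and the adaptor gene MAVS and the kinase gene TBK1 at 0.04 and 0.12.

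Of 18 bright genes for interferon receptors, JAK kinases, STATs and IRFs, 3 were lower by 2-fold or more, none was higher, and the median was -0.06. IRF9, a DNA-binding factor of the interferon response, read 219 in the control and 133 after the knockdown (-1.12). JAK2 read 113 and 69.0 (-1.11), and SOCS3, a feedback inhibitor of JAK kinases, 284 and 101 (-1.90). The receptor chain genes IFNAR1 (-0.53) and IFNAR2 (-0.01), the kinase gene TYK2 (0.27) and the factor gene IRF3 (0.67) stayed within 2-fold. The interferon gene IFNB1 was below the floor on both CL1-5 arrays, at 0.582 and 0.709.

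MHC class I genes, which load and present peptides, had a median of -0.38 over 16 bright members, 3 of them at least 2-fold lower and 0 higher. PSMB9, a subunit of the immunoproteasome, read 296 in the control and 81.7 after the knockdown (-2.26). Its partner subunits were not lower to that degree, at -0.24 for PSMB8 and 0.88 for PSMB10. HLA-E (-1.29) and HLA-G (867 and 572) passed 2-fold, but probe sets of classical and non-classical HLA genes can share signal, and their single values are uncertain. The light chain gene B2M read 2837 and 2922 (-0.36). In this list 8 of 14 matched promoters held the element core given above, beside 2 members past 2-fold that were matched and held none.

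Inflammatory genes outside the interferon lists were divided. Among 16 bright regulators of NF-kB, 0 were lower and 1 was higher, the death receptor gene TNFRSF21 at 32.5 and 211 (2.30), and the median was -0.15. Among 8 bright cytokine genes of the IL-6 and IL-1 families, CSF1, a macrophage growth factor, was higher at 119.8 and 518 (1.71). IL6 was lower at 233 and 130.2 (-1.24), as was the receptor gene LIFR (-1.36). Of 4 bright chemokine genes, CXCL1 was lower at 151 and 80.8 (-1.30) and none was higher. Among 5 bright complement and pentraxin genes, PTX3, a soluble pattern recognition protein, was lower at 206 and 7.37 (-5.20). CLU, an extracellular chaperone of that list, was higher at 214 and 758 (1.43), in 3 of 3 bright probe sets.

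Genes of the extracellular matrix formed the other large group of lower genes. Matricellular and basement membrane proteins link collagen networks to cell receptors and hold growth factors. Of 11 bright members 8 were lower by 2-fold or more and 0 higher, beside 5.1% and 5.06% over all bright genes, and their median was -2.35, or -0.43 without a filter. FN1, fibronectin, read 184 in the control and 32.4 after the knockdown, and 47.0 and 97.8 in the CL1-0 arrays (-2.90), with 4 of 4 bright probe sets lower. NID1, nidogen of basement membranes, read 265 and 68.4 (-2.35) but 1427 and 1312 in CL1-0. The microfibril gene MFAP2 (-2.98), TGFBI (-1.78) and CCN2 (187 and 123) completed the 8 with TNC, SPARC and EGFLAM.

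Collagen chain genes were mostly dim, with 7 of 26 bright. Of these, 4 were lower by 2-fold or more, none was higher, and the median was -1.89. At the filter of 12.5 it was -0.31, and without a filter -0.38. COL4A1 and COL4A2, the paired chains of basement membrane collagen that share a promoter region, read 441 and 606 in the control and 58.1 and 116 after the knockdown. COL6A2 of microfibrillar collagen read 730.3 and 256 (-1.91), whereas its partner chains COL6A1 (-0.74) and COL6A3 (0.05) stayed within 2-fold. The transmembrane collagen gene COL13A1 read 260.4 and 92.9 (-1.89). Among 10 bright enzymes that modify collagen, the crosslinking enzyme gene TGM2 was the member past 2-fold (-4.34), and the median was 0.00. The laminin chains were divided, with LAMB1 at -3.38 and LAMA5 at 1.76 of 5 bright genes.

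Among proteases and their inhibitors, the metalloproteinase and TIMP list held more lower members than any other list. Of 7 bright matrix metalloproteinase and TIMP genes, 4 were lower by 2-fold or more, none was higher, and the median was -1.99. With dimmer genes let in, that median was -0.11 at a filter of 12.5, the median of all signals, and -0.40 without a filter. MMP14, a membrane-bound collagenase, read 423 in the control and 102 after the knockdown (-2.44). TIMP2, an inhibitor that also helps MMP14 activate another protease, read 439 and 146 (-1.99), and both genes had all their bright probe sets lower. Among 5 bright ADAM genes, ADAM19 (-1.81) and ADAM15 (-1.03) were lower, and the median was -0.11. None of 6 bright genes of the urokinase system and secreted serine proteases passed 2-fold, beside 10.2% of all bright genes. Their median was -0.15, or -0.67 without probe sets marked as shared or mixed. Of 8 bright serpin and Kunitz inhibitor genes, SERPINH1 (-1.60) and SERPINB9 (-1.34) were lower and 1 was higher, with -0.11 as the median. The higher one, TFPI, which blocks the start of coagulation, read 125 and 827 (2.32), higher in 4 of 4 bright probe sets. Its target F3, tissue factor, read 1272 and 672 (-1.32), and F2R, the thrombin receptor, 324 and 899 (1.07).

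Heparan sulfate genes were divided although the lowest gene of the comparison, the endosulfatase gene SULF2, was one of them. SULF2 read 604 in the control and 0.833 after the knockdown, the latter below the floor, so its ratio of -7.89 is a bound. SDC1, a membrane proteoglycan, read 1082 and 272 (-2.39), and the sulfotransferase genes NDST1 and HS3ST3A1 stood at -1.39 and -1.02. GPC1, a lipid-anchored proteoglycan, was higher at 138 and 609 (1.74). The median of the 15 bright members was 0.41, and it turned to -0.60 without probe sets marked as shared or mixed and to -0.40 without a filter. Among proteoglycans and hyaluronan genes, VCAN, a large hyaluronan-binding proteoglycan, reached 307 (4.40), higher in 5 of 5 bright probe sets. CD44, the hyaluronan receptor, was lower in 7 of 7 (-1.68).

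Of 9 bright integrin subunit genes, 2 were lower by 2-fold or more, none was higher, and the median was -0.33. ITGA2, a collagen receptor chain, read 416 in the control and 190.3 after the knockdown (-1.53), beside ITGB3 at -4.79. Genes for caveolae, the small pits of the plasma membrane, had a median of -0.46 over 9 bright members. The coat gene CAVIN1 read 907 and 347 (-1.79), and CAV2 (-1.07) and PACSIN2 (-1.21) also passed 2-fold. Of 23 bright genes for contractile and intermediate filaments, 6 were lower and 1 higher (median -0.41). MYLK, myosin light chain kinase, read 122 and 13.7 (-3.56), and PDLIM1, which ties actin to adhesions, 1447 and 505 (-1.92). The one higher member was the neurofilament gene NEFL at 287 and 1090.3 (1.52), which read 4558 in CL1-0 with vector.

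Genes best known from blood vessels were mostly dim, and most of the bright ones were lower after the knockdown. Of 30 genes of the VEGF, angiopoietin and endothelial list on the array, 9 were bright. Of these, 7 were lower by 2-fold or more and none was higher, beside 5.1% and 5.06% over all bright genes. Their median was -1.74, or -1.02 without a filter and -2.86 without probe sets marked as shared or mixed. FLI1, an ETS factor of blood and vessel lineages, read 191 in the control and 8.02 after the knockdown, and 5.31 and 0.658 in the CL1-0 arrays (-4.98). SOX7, an early vessel factor, read 361 and 32.6 (-3.87), and ANGPT2, a ligand of the receptor TIE2, 294 and 38.1 (-3.35). SOX7 read 13.3 and 8.61 in CL1-0, and ANGPT2 5.68 and 0.558. VEGFA itself stayed within 2-fold at 823 and 914 (-0.25). Of the 8 endothelial cell markers 1 was bright, with a ratio of -2.36. The sum over all 8, which 1 bright gene can set, was 552 in the control and 120 after the knockdown, beside 64.9 and 55.5 in CL1-0. The defining markers VWF and TEK lay below the floor on both CL1-5 arrays, at 1.97 and 2.30, and at 1.86 and 2.54.

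Receptors of axon guidance also included lower members. NRP2, which binds semaphorins and VEGF, read 90.5 in the control and 2.29 after the knockdown, and PLXNA2, bright in the control at 137, stood at -3.80. With SEMA4B (-1.05) they were 3 of 10 bright members, with 0 higher and a median of 0.07. Of 3 bright Eph receptor and ephrin genes, EPHA2 was higher at 305 and 1029.7 (1.35), as was EFNA5 (1.33).

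Cell junction genes differed by type of junction. Of 9 bright claudin and tight junction genes, 3 were higher by 2-fold or more, 1 was lower, and the median was 0.51. That median was 0.13 with the arrays scaled to one median, 0.14 at the filter of 12.5 and -0.01 without a filter. PATJ, a scaffold of the apical junction, read 69.3 in the control and 258 after the knockdown (1.49), and CLDN10 33.6 and 115 (1.37). OCLN, occludin, was within 2-fold at 262 and 587 (0.76). All 6 bright desmosome genes had positive ratios, from 0.13 to 1.40, and PKP2, plakophilin 2, was the member past 2-fold at 38.1 and 133. The 3 bright classical cadherin and catenin genes stayed within 2-fold, 1 of them above 0. All 3 bright connexin and pannexin genes, which form channels, had negative ratios with a median of -0.90, and GJA3 was past 2-fold (-1.09). EPCAM was dim, at 6.06 and 18.1.

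Transcription factors of epithelial-mesenchymal transition went both ways, 5 lower and 3 higher of 13 bright, with a median of -0.63. TWIST2 read 163 in the control and 56.0 after the knockdown (-1.94), FOXC2 98.7 and 37.1 (-1.81), and ETS1 916 and 562 (-1.11). SOX9 (-1.13) and SNAI2 (-1.71) were lower as well. FOXQ1 was higher at 306 and 1713 (2.08), as were ETV1 (1.51) and TCF4 (3.24).

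**Figure D3:**
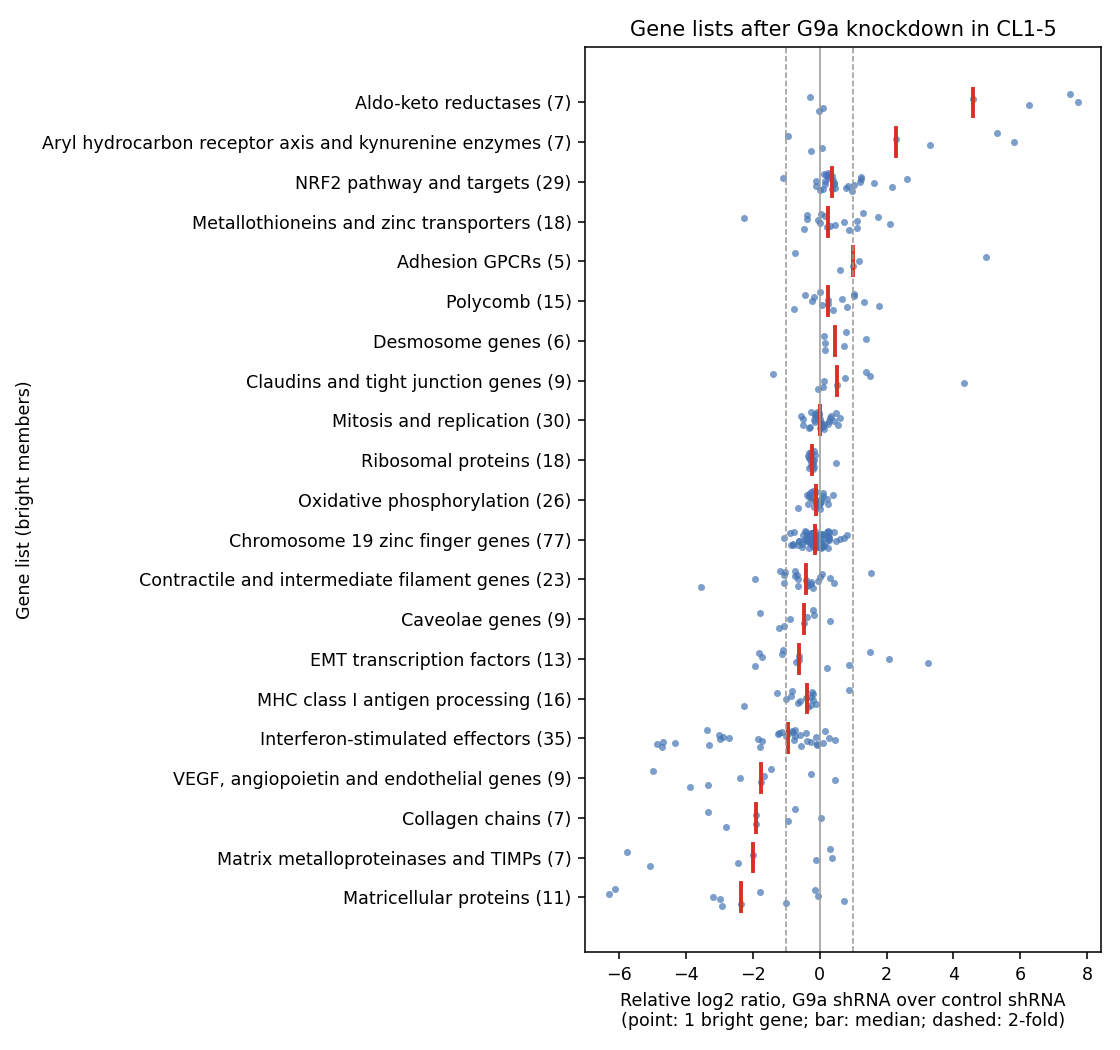
Relative log2 ratios of the bright members of 21 gene lists, with 1 point a gene, a red bar at the median of the list and dashed lines at 2-fold. Matricellular genes have the lowest median of these lists (-2.35) and aldo-keto reductases the highest (4.60). Without a filter those medians were -0.43 and 0.099. Mitosis and replication genes lie close to 0.

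Adhesion and calcium-binding families held members far out on both sides. Among 14 bright tetraspanin genes, TSPAN13 read 120.0 in the control and 1829 after the knockdown (3.53), while TSPAN5, which escorts the protease ADAM10, read 155 and 12.5 (-4.03). ANXA1, an annexin with anti-inflammatory action, read 146 and 2212 (3.52), and ANXA3 122 and 0.309. Of 9 bright S100 genes, whose median was 0.38, the neighbours S100A4 and S100A5 were higher at 3.13 and 3.87, and S100A16 was lower at 1649 and 575 (-1.92). ALCAM, an immunoglobulin-type adhesion gene, read 12.8 and 113 (2.75), and NRCAM 233 and 744 (1.28).

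Genes for the metabolism of foreign and reactive compounds held the highest ratios. The 4 aldo-keto reductases past 2-fold, of 7 bright, read between 8.20 and 21.1 in the control and between 500 and 2271 after the knockdown. AKR1B10, which reduces retinal and lipid aldehydes, read 15.6 and 499.8 on these arrays, and 29.3 and 67.4 in CL1-0. The members AKR7A2 (-0.02), AKR7A3 (0.10) and AKR1E2 (-0.28) stayed within 2-fold. Probe sets of AKR1C1, AKR1C2 and AKR1C3 can share signal. Without probe sets marked as shared or mixed, the median of the list was -0.023 in place of 4.60, and 1 member in place of 4 passed 2-fold. That member was AKR1C3, at 8.52 in the control and 2015 after the knockdown. The values of AKR1C1, AKR1C2 and AKR1B10 came from probe sets so marked.

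NRF2 is the factor that oxidative stress releases from KEAP1 and that drives antioxidant genes. Of 29 bright genes of its pathway, 7 were higher by 2-fold or more and 1 lower, 26 had positive ratios and the median was 0.37. UGDH, which makes UDP-glucuronate, read 323 in the control and 1307 after the knockdown (1.62). The efflux pump gene ABCC3 read 16.7 and 99.2 (2.17), and ME1, a source of NADPH, 354 and 1091 (1.22). The classical targets NQO1 (0.30), HMOX1 (0.14), GCLM (0.37) and TXNRD1 (-0.11) stayed within 2-fold, and so did NFE2L2, which encodes NRF2 (0.39), and KEAP1 (0.16). BACH1, a repressor at the same elements, was the lower member at 353 and 219.8 (-1.08). The antioxidant element core, TGACNNNGC on either strand, lay in 8 of 23 matched promoters of the list, against 1144 of 7134 bright genes and 13.6% of all promoters, and in 0 of 3 matched promoters of the higher aldo-keto reductases.

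The aryl hydrocarbon receptor senses planar compounds and tryptophan breakdown products. AHR read 11.6 in the control and 150.4 after the knockdown, and 37.0 and 31.7 in the CL1-0 arrays (3.29). TIPARP, a target that feeds back on the receptor, read 130.4 and 840.0 (2.29). With CYP1B1, which was at 22.6 and 1185, and KYNU they made 4 higher members of 7 bright, with 0 lower and a median of 2.29. That median was 1.11 at the filter of 12.5, 0.16 without a filter and 0.89 without probe sets marked as shared or mixed. CYP1B1 and KYNU had 3 of 3 bright probe sets on the higher side.

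Other redox families held 1 or 2 members past 2-fold in a direction. Among 12 bright glutathione transferase genes 2 were higher and 0 lower (median 0.04), with MGST1 at 506 and 1468 (1.14). TXNIP, the inhibitor of thioredoxin, was far lower at 391 and 22.4, and 11.9 and 24.0 in CL1-0 (-4.52, 3 of 3 bright probe sets). It was the lower member of 16 bright genes for peroxiredoxins, glutaredoxins and their relatives, whose median was 0.00, and the glutaredoxin gene GLRX was the higher one (1.05). Of 10 bright aldehyde dehydrogenase genes, ALDH2 (262 and 106, -1.70) and ALDH1A3 (-1.53) were lower and 0 were higher. None of 9 bright iron genes passed 2-fold, beside 10.2% of all bright genes.

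Metallothioneins bind zinc and copper and are switched on by metal through the factor MTF1. Of 18 bright metallothionein and zinc transporter genes, 5 were higher by 2-fold or more, 1 was lower, and the median was 0.26. All 5 were neighbouring metallothionein genes of chromosome 16, near-identical copies whose probe sets can share signal. MT1H read 660.0 in the control and 2136 after the knockdown, and 58.6 and 93.5 in the CL1-0 arrays (1.29). MT1X read 1166 and 3312, and 179.9 and 303 in CL1-0 (1.11). The gene on the other side was SLC30A1, a zinc exporter that is also a target of MTF1, at 262 and 72.3 (-2.26).

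The promoters of MT1H and MT1X are shown as those of higher members that could be matched, with the metal element core TGCNCNC on either strand in capitals, over the same window of 120 bases.
MT1H (chr16:56669644-56669763, plus strand): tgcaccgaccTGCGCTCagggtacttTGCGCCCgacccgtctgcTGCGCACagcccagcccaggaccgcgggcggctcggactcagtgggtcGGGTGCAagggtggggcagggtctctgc
MT1X (chr16:56682300-56682419, plus strand): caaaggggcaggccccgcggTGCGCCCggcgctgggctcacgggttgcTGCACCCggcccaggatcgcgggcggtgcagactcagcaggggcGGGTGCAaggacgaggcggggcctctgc

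The windows hold 4 and 3 matches. The core is short, and 55.2% of all promoters in the table hold it at least once within their 300 bases.

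Signalling lists were divided, mostly with a few members on each side. Of 18 bright TGF-beta genes, 4 were lower and 1 higher (median -0.16). LTBP1, which stores latent TGF-beta in the matrix, read 252 in the control and 71.5 after the knockdown (-2.22), and the follistatin-like gene FSTL1 235 and 39.4 (-2.97). Of 9 bright genes of BMP signalling and the ID family, 3 were higher, 2 were lower and -0.27 was the median. The higher ones were ID genes, whose products block bHLH factors. ID4 read 12.2 and 472, and 2161 and 1631 in CL1-0, and ID1 935 and 2740.3 (1.15), while ID2 stood at 2.97 and ID3, within 2-fold, at 0.50. The lower ones were the BMP antagonist genes NOG, at 94.7 and 18.6 (-2.75), and NBL1 (-1.44).

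In the Wnt list of 14 bright genes, those past 2-fold were 3 receptor genes, which were higher, and 2 secreted antagonist genes, which were lower, and the median was 0.06. LGR4, the receptor for R-spondins, read 24.4 in the control and 320.4 after the knockdown (3.32), LRP5, a co-receptor, 22.8 and 132 (2.13), and FZD6 455 and 1280.2 (1.09). The antagonist gene DKK3 read 589.7 and 225 (-1.79), and SFRP1 stood at -2.92. In the Notch list of 16 bright genes, NRARP, a feedback regulator, was higher at 39.0 and 452 (3.14), and MAML2, a coactivator, was lower at -5.86. Of 11 bright genes of the IGF system, 4 were lower and 1 higher. IGFBP7 read 113 and 18.2 (-3.04), and IRS1 and IRS2, the paired adaptors of insulin-type receptors, stood at 1.47 and -1.17.

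Growth factor and MAP kinase genes showed no common direction. NRG1, a ligand of ERBB receptors, read 9.60 in the control and 411 after the knockdown, higher in 3 of 3 bright probe sets. HBEGF, another ligand of the family, was lower (-3.23). None of 9 bright genes of the MET and AXL list passed 2-fold, beside 10.2% of all bright genes. Among 12 bright MAP kinase feedback genes, SPRY2 was higher at 65.7 and 358 (2.05), and DUSP1 (-2.69), DUSP10 (-1.47) and SPRED2 (-1.16) were lower. Of the AP-1 genes, JUND was higher at 326 and 1222 (1.51) and JUN lower at 1389 and 797 (-1.20). RXRA, the partner of many nuclear receptors, read 156 and 882 (2.10), and the corepressor gene NRIP1 113 and 34.7 (-2.10).

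Among the chromatin lists, Polycomb held the most members past 2-fold. Over all bright genes, 5.06% were higher and 5.1% lower. Of 13 bright genes of the G9a complex and H3K9 methyltransferases, EHMT2 and ZNF644 (-1.10), a zinc finger partner of G9a, were lower and 0 were higher. EHMT1, which encodes GLP, read 377 and 463 (-0.10). None of 11 bright H3K9 demethylase and HP1 reader genes and none of 10 bright DNA methylation genes passed 2-fold. At the shares over all bright genes, lists this short may hold none. Of 15 bright Polycomb genes, which silence through lysine 27 of histone H3, 4 were higher and 0 lower (median 0.25). PCGF3 read 52.3 and 234 (1.76), CBX7 52.7 and 175 (1.33), and EZH1 (1.03) and PHC3 (1.03) were just past 2-fold, whereas EZH2 stood at 0.39. Of 11 bright clustered histone genes, 9 had positive ratios, the median was 0.40 and H3C3 was past 2-fold at 28.9 and 116 (1.61). Among 77 bright zinc finger genes of chromosome 19, many of which recruit H3K9 methylation to repeats, 1 was lower and 0 were higher, with a median of -0.14.

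Mitosis and replication genes showed little difference, whereas G1 genes held members past 2-fold on both sides. None of 30 bright mitosis and replication genes passed 2-fold, and they ranged from -0.55 to 0.61. Of 20 bright G1 genes, 3 were higher and 1 was lower, beside 5.06% and 5.1% over all bright genes. CDK6 was the lower one at 821 and 342 (-1.66, 5 of 5 bright probe sets). CCNA1, a germline-type cyclin, was higher at 19.4 and 167 (2.71), as were the inhibitor gene CDKN2D (2.57) and E2F2 (1.71). The lists of 18 ribosomal protein, 26 oxidative phosphorylation and 16 heat shock genes also held no member past 2-fold, with medians of -0.23, -0.10 and -0.14. Of 22 cancer-testis genes on the array 10 were bright, and 0 of these passed 2-fold, beside 10.2% of all bright genes. Among 9 bright long noncoding RNAs, UCA1 read 29.9 in the control and 442 after the knockdown (3.49), and MIR100HG 107 and 388 (1.46). All 89 lists together held 1084 bright genes, of which 93 were higher and 150 lower, beside 428 and 431 of all 8458 bright genes. The lists were chosen with earlier results of these data known, so their shares do not describe genes at large.

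Some of the genes with the largest ratios belong to no family above or were the single distant member of one. TRPA1, an ion channel opened by irritants, read 12.8 in the control and 849 after the knockdown, and 1.31 and 1.16 in the CL1-0 arrays (5.65). ARHGAP18 read 8.75 and 488, and 675 and 609 in CL1-0 (5.40). The first was near background in CL1-0, and the latter was as bright there as after the knockdown. ADGRG6, an adhesion receptor, read 28.2 and 1174, and PLCB1, a phospholipase C, 3.05 and 254. ARHGDIB read 298 and 0.949, and 4.77 and 1.21 in CL1-0. Its knockdown signal lay below the floor, so its ratio of -6.87 is a bound. SRGN, a granule proteoglycan, read 245 and 2.39 but 2192 and 1502 in CL1-0. ARHGAP23 read 149.6 and 5.02 (-5.30), and the repressor gene HIC1 135 and 2.39.

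Genes of chromosome 4 were shifted upward as a whole. The median relative ratio of its 302 bright genes was 0.51, and 83.1% of them lay above 0. Past 2-fold, 46 of them (15.2%) were higher and 9 (2.98%) lower, against 5.06% and 5.1% over all bright genes. The shift ran along the entire chromosome: cut into 12 blocks of neighbouring bright genes, at least 25 in each, all 12 blocks had medians above 0, from 0.27 to 0.87. In the HA-G9a comparison, whose arrays are separate, the median of chromosome 4 was -0.09.

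Other chromosomes were shifted less or in stretches. Medians of the remaining chromosomes ran from -0.20 for chromosome 22 to 0.29 for chromosome 18. Chromosome 18 was divided, as its last 2 blocks, from RNF138 to the end, had medians of 0.55 and 0.50. On chromosome 9 the first block, from KANK1 to HAUS6, had the lowest median of all, -0.60, and on chromosome 1 the block from GPSM2 to WDR77 stood at 0.48. Of 330 blocks over all chromosomes, 32 had a median of at least 0.3 either way after the knockdown, and 3 of 330 had one with HA-G9a. The number of copies of these chromosomes in either population was not measured by these arrays, and its part in the ratios was not tested.

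The shift touches genes named above, and others. UGDH (1.62) and PCGF3 (1.76), named above, lie on chromosome 4. So do the cystine transporter gene SLC7A11 (2.63), the highest member of the NRF2 list, and the cyclin gene CCNG2 (1.85). Of the 46 higher genes there, 28 were below 3-fold. Taken relative to the median of their own chromosome, 374 genes were higher and 440 lower over the genome, of which 362 and 409 were among those counted above. With chromosome 4 left out, 382 were higher and 422 lower. The interferon effectors had 17 lower members on that scale in place of 16, the NRF2 list 6 higher in place of 7, and the matricellular list 7 lower in place of 8.

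**Figure D4:**
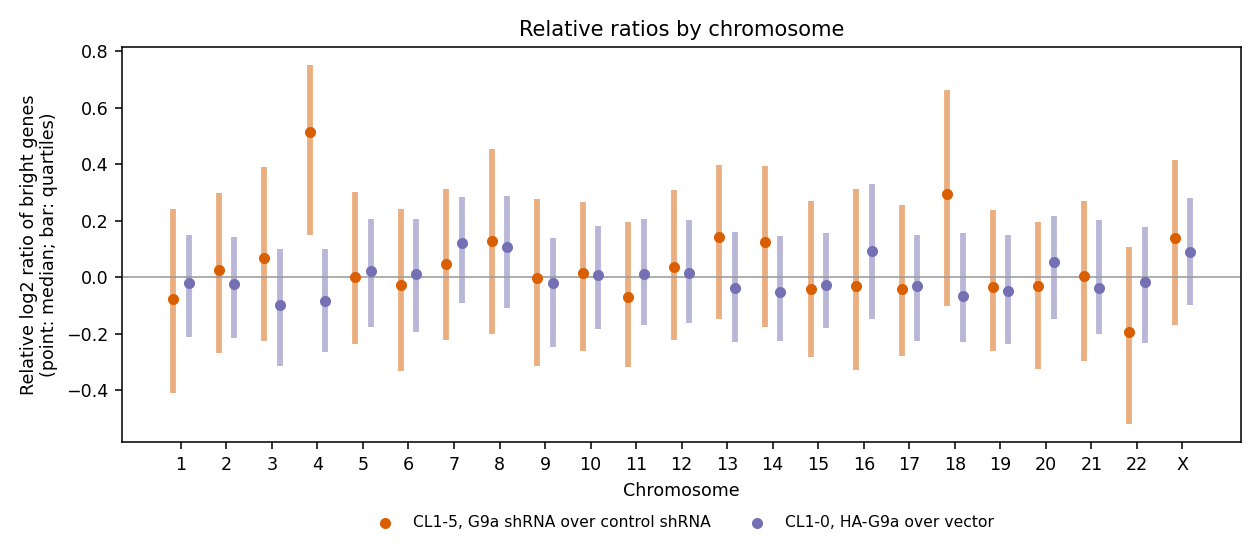
Median (point) and quartiles (bar) of the relative log2 ratios of bright genes on each chromosome, after the knockdown in CL1-5 (orange) and with HA-G9a in CL1-0 (purple). Chromosome 4 stands highest after the knockdown (0.51) and chromosome 18 next (0.29), while all HA-G9a medians lie between -0.10 and 0.12.

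Genes past 2-fold also lay beside each other. Of bright genes whose preceding bright neighbour was higher, 13.8% were higher, against 5.07% of all, and after a lower neighbour 10.7% were lower against 5.09%. There were 16 runs of at least 3 neighbouring bright genes past 2-fold in 1 direction, 12 higher and 4 lower, with 52 genes in all, and 3 of the runs lay on chromosome 4. Some were families of related genes: IFIT2, IFIT3, IFIT1 and IFIT5 were lower, and the AKR1C genes and the 5 metallothioneins were higher. Others held unrelated genes. TSPAN13, AGR2 and AHR, neighbours among bright genes on chromosome 7, were higher at 3.53, 7.28 and 3.29, and so were F2RL2, F2R and AGGF1 on chromosome 5. F2R and AGGF1 stood at 1.07 and 1.03, and F2RL2 read 2.14 in the control, below the floor, and 224 after the knockdown, so that its ratio of 5.66 is a bound. PTPRK, ARHGAP18 and L3MBTL3 on chromosome 6 stood at 2.43, 5.40 and 1.97. On chromosome 13, IRS2 (-1.17), COL4A1 (-3.32) and COL4A2 (-2.79) were lower together, and on chromosome 1 C1orf21, EDEM3 and NIBAN1 (-1.45, -1.42 and -2.48).

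Promoters of genes past 2-fold were poorer in CpG pairs than those of other bright genes. The CpG ratio, the number of CpG pairs over that given by the C and G content of the 300 bases, had a median of 0.865 over all 7134 matched bright genes. The median was 0.810 for the 329 higher and 0.791 for the 340 lower genes, and 0.699 and 0.731 for those past 4-fold. A ratio below 0.4 was found in 4.55% of genes within 2-fold, 14.3% of higher and 14.4% of lower genes, and in 25.8% and 21.9% of those past 4-fold upward and downward. Both directions thus stood on the same side of the other genes.

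Beside the knockdown, the HA-G9a comparison in CL1-0 gives values from a separate pair of arrays, in another line and with G9a raised. There 122 of 7743 bright genes (1.58%) passed 2-fold upward and 64 (0.827%) downward. Of the 259 genes lower after the knockdown and bright in both comparisons, 30 (11.6%) were higher with HA-G9a and 2 (0.772%) lower. Among the 6809 genes within 2-fold after the knockdown, 0.881% were higher and 0.352% lower with HA-G9a. Bright in CL1-0 means that the brighter of its arrays passed the filter. A gene dim with vector thus entered only where HA-G9a read higher, such as CD44 (32.3 and 331) and ETS1 (15.2 and 123). Others, such as LAMB1 (365 with vector), were bright without it. Genes at least 4-fold lower had a median of 28.8 with vector, so the filter favours the 11.6%, and its part was not tested. Of 249 genes higher after the knockdown, 5 (2.01%) were lower with HA-G9a and 13 (5.22%) higher. Seen from the other list, 29.1% of the 103 genes higher with HA-G9a were lower after the knockdown and 12.6% higher, and of 31 genes lower with HA-G9a 5 (16.1%) were higher and 2 (6.45%) lower.

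The 30 genes lower after the knockdown and higher with HA-G9a, EHMT2 among them, came from several groups above. SGK1, a kinase of ion transport and survival, read 213 in the control and 60.2 after the knockdown, and 24.7 with vector and 111 with HA-G9a. MYO10, a motor of filopodia, read 1269 and 375, and 84.6 with HA-G9a (2.24). TMEM158, a membrane protein gene, read 721 and 234, then 46.8 and 222. SLC30A1 and SOCS3, described above, read 106 and 54.3 with vector and 419 and 191 with HA-G9a. LGALS3BP, a secreted glycoprotein induced by interferon, read 121 and 5.55 in CL1-5 and 73.1 and 254 in CL1-0. FOXF1, a mesenchymal factor of the lung, read 373 and 17.6, then 34.0 and 107. In CL1-0 these ratios ran from 1.74 for FOXF1 to 2.33 for TMEM158, and CD44 reached 3.44.

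In the other direction 5 genes were higher after the knockdown and lower with HA-G9a, namely CCNG2, SLC25A21, NICOL1, GLDC and SLC1A1. CCNG2, a cyclin linked to cell cycle arrest, read 97.8 in the control and 467 after the knockdown, and 215 with vector and 57.7 with HA-G9a. GLDC, the glycine decarboxylase, read 24.0 and 166, then 239 and 105. A further 15 genes passed 2-fold in the same direction on both pairs of arrays. UCA1 read 24.0 with vector and 146 with HA-G9a, NRG1 68.9 and 233, and MGST1 25.8 and 84.6, all higher in both. MFAP2 was lower in both, at 138 and 55.4 in CL1-0.

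**Figure D5:**
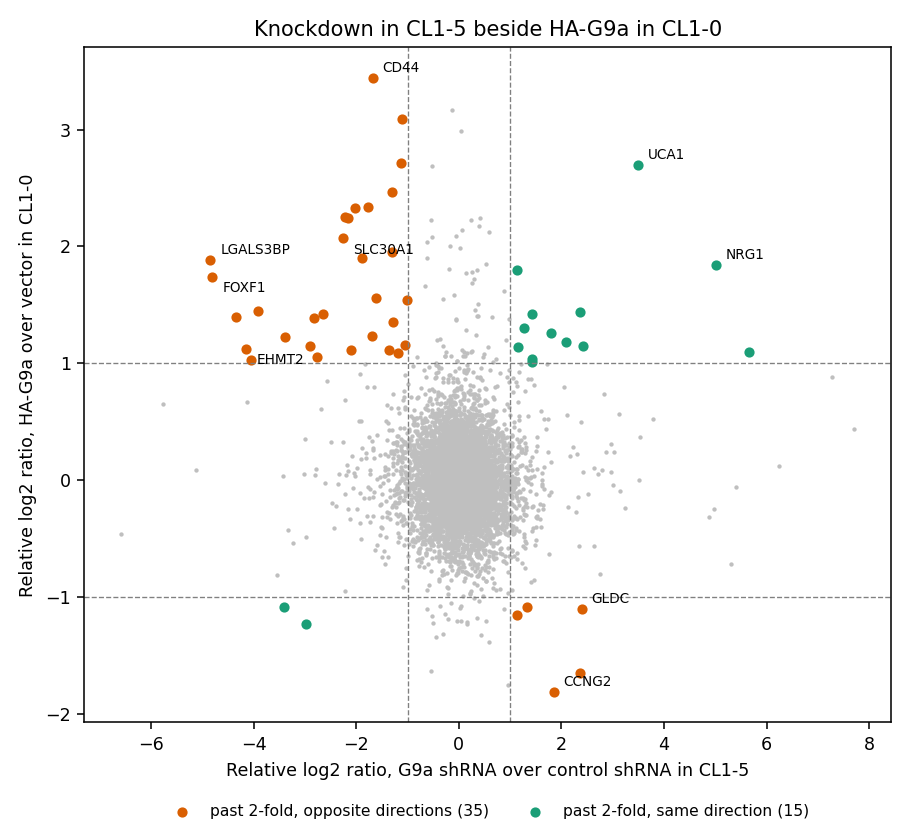
Relative log2 ratio after the knockdown in CL1-5 (x axis) and with HA-G9a in CL1-0 (y axis) of genes bright in both comparisons, with dashed lines at 2-fold. Orange points are the 35 genes past 2-fold in opposite directions, 30 of them lower after the knockdown, and green points the 15 past it in the same direction.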

How the data were processed

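Total RNA of 4 cell populations was labelled as biotinylated cRNA from 6 ug and hybridised to 1 Affymetrix array each, per the labels' protocols. The deposited table holds 1 linear intensity for each of 54675 probe sets and each array. MAS5 is the tool named in the submitters' processing notes. Its settings were not given in the sources used here. The deposited intensities had no common median.

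Probe sets were named from the platform annotation, with symbols updated against a RefSeq gene table of GRCh38.p14 (41043 of 41097 single symbols matched). Probe sets with several symbols (1801) or not listed (11777) named no gene, and 59 of sex-linked genes were left out. A gene's value was its probe set with the highest mean over the 4 arrays. Intensities were set to a floor of 3.35 (25th percentile of all values) and log2-transformed. The filter and centring are given with the results. With 1 array a group no test was run and the number of arrays limits the precision.

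Named genes were the 15 highest and 15 lowest bright genes whose bright probe sets shared a sign, members of the gene lists and markers, genes of runs, and the 10 genes per direction opposite to HA-G9a. The genes in the same direction as HA-G9a and those beside the threshold were named after their values were seen. The comparison, its lists and these rules were chosen with earlier results of these data known. Alternatives tried were other scalings, filters, floors, probe set rules and thresholds. The steps were tested on simulated data and ran in Python 3.11.15 with NumPy 2.4.6, pandas 2.3.3 and matplotlib 3.10.9.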

Additional observations from a re-analysis of the deposited data

How the results depend on the processing

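The number of genes at least 2-fold higher, 428, and lower, 431, depended on centring and filter. As deposited they were 1034 and 252, and relative to the hybridization controls 787 and 289. With the filter at the median of all signals they were 1103 and 991, without a filter 1376 and 1830, and at 4-fold 84 and 144. Scaling to one median gave 377 and 463, quantile normalization 382 and 428, unique probe sets 330 and 322, and the chromosome median, chosen after seeing the data, 374 and 440. EHMT2 was -4.14, and -3.74 as deposited. Lower interferon effectors, 16, became 27 with the filter at the median and 30 without one. The median of the adhesion GPCR list turned from 1.004 to -0.22 without a filter, and that of the aldo-keto reductases from 4.60 to -0.023 with unique probe sets. The latter setting leaves out the probe sets used for AKR1C1, AKR1C2 and AKR1B10, while AKR1C3 stayed past 2-fold. The aldo-keto median was also 2.35 with the filter at the median of all signals and 0.099 without a filter. That of the adhesion GPCR list was 0.61 with the filter at the median. Why either median moved was not tested. Medians of the heparan sulfate, claudin, collagen, metalloproteinase, matricellular, endothelial and aryl hydrocarbon receptor lists also moved with the filter, as given with those lists. The bright filter leaves out their dim members. Of the other list values under alternatives, 2649 stayed within the limits set and 456 moved. No paired analysis was possible because each group had 1 array, and leaving out an array was likewise not possible. Ratios of dim genes rest on signals near background and are the least precise.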
